A study of Zea mays subsp. mays with 2 samples.

Results

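In maize endosperm taken 18 days after pollination, 514 nuclear loci of moderate wild-type level had at most 1/2 of their wild-type value in the kernel mutant dek35. They were chosen from the 2 deposited tables of 43446 loci. A locus was taken when it lay on chromosomes 1 to 10, had coordinates listed only once, spanned at least 500 bp, reached at least 5 FPKM in wild type, had a mean of both tables under 100 FPKM, and had a dek35 value of no more than 1/2 of the wild-type value as deposited. FPKM counts sequenced fragments per kilobase of a transcript, relative to all fragments mapped in the library. Of the 43446 loci, 8547 passed every condition other than the last, so 6.01% of them were chosen as lower loci. Over all 13010 rows with at least 5 FPKM in wild type, 1021 (7.85%) met the same fold. Those not chosen were 271 rows that share their coordinates with another row, 182 that span under 500 bp, 52 with a mean of at least 100 FPKM and 2 off the 10 chromosomes.

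The samples were endosperm of dek35 mutant kernels and endosperm of wild-type kernels, each at 18 days after pollination, and the labels give no inbred background, further allele or treatment for either. Triplicates are mentioned in the submitters' design text, but each genotype has only 1 labelled sample and 1 column of values. Each genotype was therefore treated as 1 library, so that the differences described could not be tested and carry no p-value. The values that chose the lower loci are given as a description.

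Endosperm is the tissue of the kernel that stores starch and protein, and in the filling phase its messenger RNA is dominated by a small set of storage-protein transcripts. The dek (defective kernel) mutants are a class in which the endosperm, and often the embryo, does not develop fully. DEK35, the product of the mutated gene, belongs to the pentatricopeptide repeat proteins, which bind RNA in organelles, and is known for its part in the splicing of a mitochondrial transcript for a subunit of respiratory complex I. The loci described here are nuclear and carry only coordinates in the files, so they are called by position and no gene name, cell type or function is given to them. In tissue of this kind, fewer cells of a type and less RNA per cell cannot be told apart.

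As a group the lower loci had wild-type levels close to those of the loci they were chosen from. Their median wild-type level was 14.1 FPKM, with quartiles of 8.11 and 27.9, beside a median of 12.7 for all 8547 loci. Their median dek35 level was 4.19 FPKM, with quartiles of 1.97 and 8.99, beside 19.9 for all 8547. Summed over the 514 loci, wild type had 12310 FPKM and dek35 3715, a 3.31-fold difference. These sums were 1.002% of the wild-type total and 0.350% of the dek35 total. The other loci of the 8547 went the other way in sum, with 145249 FPKM in the wild-type library and 251167 in dek35, 1.73-fold higher in dek35.

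**Figure D1:**
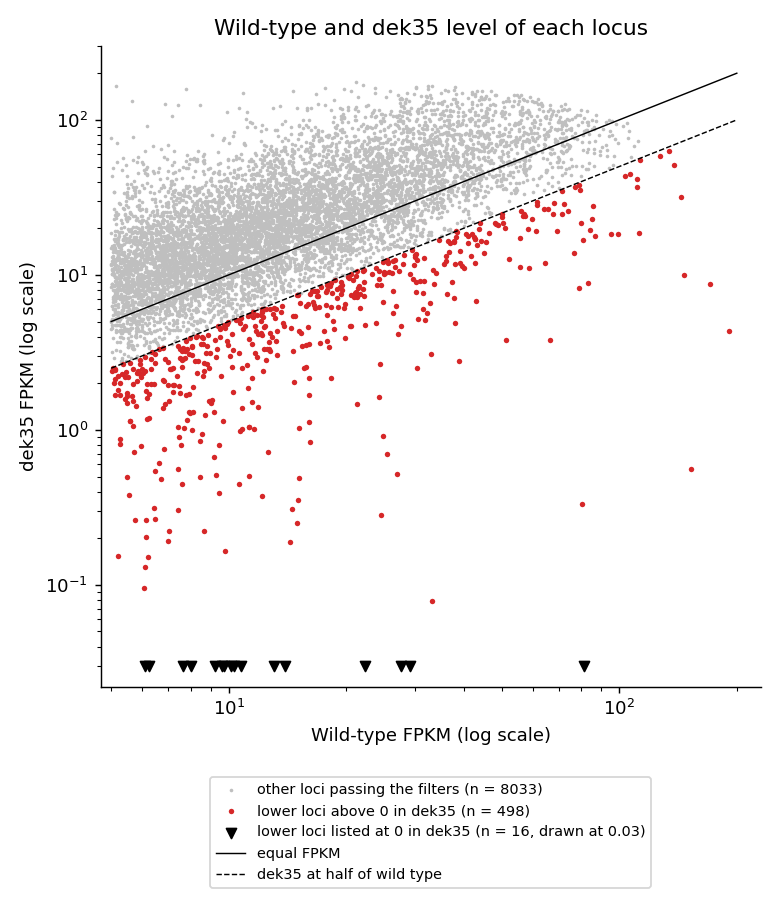
Wild-type FPKM (x axis, log scale) and dek35 FPKM (y axis, log scale) of the 8547 loci that passed every condition other than the fold. The 498 lower loci above 0 in dek35 are red and lie on or under the dashed line, the 16 listed at 0 in dek35 are black triangles drawn at 0.03, and most of the other, grey loci lie above the line of equal FPKM.

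The fold by which a locus was lower varied widely among them. The median fold was 2.97, with quartiles of 2.34 and 5.24 when loci listed at 0 were placed at the top. Between 2-fold and 2.5-fold lay 171 loci, between 2.5-fold and 3-fold 88, and between 3-fold and 4-fold 80. At least 4-fold lower were 175 loci, which are 34.0% of the 514 and 2.05% of all 8547, and 89 were at least 8-fold lower. In dek35, 225 of the 514 still reached 5 FPKM, 219 had between 1 and 5 FPKM, 54 were above 0 but under 1 FPKM, and 16 were listed at 0, meaning at 1e-05, the value that stands in the tables where 0 would.

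The lower loci went against the general shift between the libraries. Most loci had higher FPKM in dek35: over 17514 loci with at least 5 FPKM in 1 library, the median of log2((dek35 + 1)/(wild type + 1)) was 0.78, or 1.71-fold. With the genotypes exchanged, the same conditions gave 5086 loci at least 2-fold higher in dek35, 45.5% of the 11184 that could have met them. This imbalance depended on the scaling. With median-of-ratios size factors 1735 loci were lower by the rule, 19.7% of those that could have met it, and 1602 higher. Such factors set the median ratio to 1, so closer counts in the 2 directions follow in part from them. Equal FPKM totals gave 390 lower and 6393 higher, and the upper quartile of loci above 0 gave 1131 and 2429. Totals without the 50 loci of highest mean gave 1419 and 1951. The number of loci that could have met the rule changes with the scaling, so these counts do not compare as shares. On the same log2 scale the 514 lower loci had a median of -1.38, and the 8547 loci a median of 0.52. When every dek35 value was divided by 1.71, the rule gave 1573 loci of 8801, or 17.9%, and all 514 were among them.

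Ranks within each library describe the same values without a scale, and a lower rank in dek35 follows from the rule. Among the 31558 loci on the 10 chromosomes with unique coordinates and a span of at least 500 bp, the lower loci had a median percentile rank of 85.5 in wild type and 59.6 in dek35. The middle 50% of the lower loci ran from percentile 77.4 to 92.7 in wild type and from 49.9 to 71.0 in dek35.

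**Figure D2:**
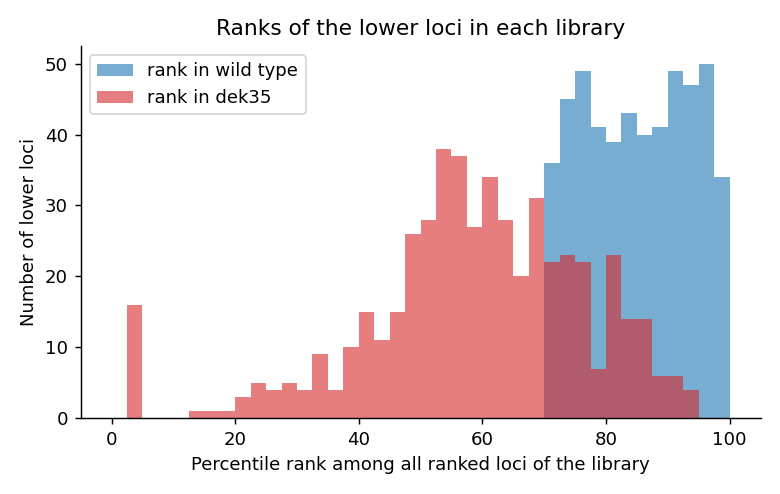
Percentile rank of the 514 lower loci in the wild-type library (blue) and in the dek35 library (red) among 31558 loci, with the number of lower loci per class of 2.5 percentile points on the y axis. The wild-type ranks start just above 70 because of the minimum of 5 FPKM, the dek35 ranks centre near 59.6, and the bar at the far left holds the 16 loci listed at 0.

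The 5 lower loci with the highest wild-type level ranged from 4.52-fold to 272-fold lower in dek35. Above 100 FPKM in wild type, the limit on the mean itself requires a lower dek35 value, the more so the higher the level. Large folds among these 5 therefore follow in part from the rule. The first, on chromosome 7 from 18923142 to 18925030, had 190.7 FPKM in the wild-type library and 4.35 in dek35, 43.8-fold lower. On chromosome 4, the locus from 202114056 to 202115986 had 170.4 FPKM in the wild-type library and 8.74 in dek35, 19.5-fold lower. A chromosome 8 locus, from 132250530 to 132252119, had 152.6 FPKM in the wild-type library and 0.561 in dek35, 272-fold lower. All 3 spanned under 2 kb, at 1889, 1931 and 1590 bp. On chromosome 1, the locus from 79139823 to 79140627 had 146.8 FPKM in the wild-type library and 10.04 in dek35, 14.6-fold lower. The fifth, on chromosome 7 from 10170663 to 10171849, kept more of its level, with 143.7 FPKM in the wild-type library and 31.8 in dek35, 4.52-fold lower.

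Among lower loci above 0 in dek35, the largest folds ran from 76.1 to 420. The largest belonged to chromosome 4 from 5079765 to 5080833, with 33.1 FPKM in the wild-type library and 0.0788 in dek35, 420-fold lower. The chromosome 8 locus at 132250530 was next. On chromosome 7, the 725-bp locus from 18789875 to 18790599 had 80.3 FPKM in the wild-type library and 0.332 in dek35, 242-fold lower. These folds rest on dek35 values far under 1 FPKM, whose read numbers are unknown. On chromosome 2, the locus from 37696272 to 37700594 had 24.5 FPKM in the wild-type library and 0.281 in dek35, 87.3-fold lower. The locus from 269002904 to 269003544 on chromosome 1 had 14.3 FPKM in the wild-type library and 0.188 in dek35, 76.1-fold lower.

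For the 16 loci listed at 0 in dek35 no fold is given. The highest in wild type, at 81.3 FPKM, lay on chromosome 1 from 271436520 to 271451396 and spanned 14877 bp. The next 4 were short, between 640 and 857 bp. They lay on chromosome 2 from 2216053 to 2216909 with 29.1 FPKM in wild type, and on chromosome 1 from 162175697 to 162176529 with 27.7. The last of them lay on chromosome 3 from 81341278 to 81341917 with 22.3 FPKM and on chromosome 9 from 110039406 to 110040089 with 14.0. Of the 16, 7 spanned at least 1000 bp.

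At the limits of the rule the values inside and outside were close. Just inside the fold limit, a chromosome 6 locus starting at 83768954 had 21.3 FPKM in the wild-type library and 10.6 in dek35, and a chromosome 1 locus starting at 172971753 had 6.63 and 3.31. Just outside it, a chromosome 6 locus starting at 103740306 had 6.26 and 3.13, 1.998-fold lower, and a chromosome 10 locus starting at 118849029 had 15.3 and 7.68. Just inside the wild-type minimum were 5.02 and 5.04 FPKM, and just outside 4.997 and 4.96. Just under the mean limit were means of 98.4 and 97.5 FPKM, and just over it 104.6 and 105.8. The shortest lower loci spanned 504 and 507 bp, and the nearest left out for their span 477 and 474 bp.

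Lower loci were short. The median span was 2096 bp, with quartiles of 1065 and 4318 bp, beside a median of 4201 bp for all 8547 loci. Of 587 loci spanning 500 to under 1000 bp, 114 (19.4%) were lower loci, and of 1028 spanning 1000 to under 2000 bp, 132 (12.8%) were. The share then fell from class to class: 6.27% of 1100 loci from 2000 to under 3000 bp, 3.96% of 2477 up to 5000 bp, 3.45% of 2259 up to 10000 bp and 2.10% of 1096 loci of 10000 bp or more. The share was above the 6.01% of all loci in the classes under 3000 bp and below it from 3000 bp on. With median-of-ratios size factors both shares were larger, at 36.2% of loci under 1000 bp and 17.5% of those of 10000 bp or more. The contrast between them was then smaller as a ratio, but not in percentage points.

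The same order held at each wild-type level examined. At 5 to 10 FPKM, 18.9% of 264 loci under 1000 bp and 2.17% of 1150 loci of 5000 bp or more were lower loci. At 10 to 20 FPKM these shares were 17.5% of 160 and 2.66% of 1165, and at 20 to 50 FPKM they were 18.5% of 135 and 3.91% of 869. Among the same 8547 loci the opposite direction showed no such order. Loci at least 2-fold higher in dek35 made up 26.9% of the shortest class, 36.5% from 2000 to under 3000 bp and 23.5% of the longest, beside 30.8% of all. This leaves out loci under 5 FPKM in wild type. The 5086 loci found with the genotypes exchanged had a median span of 3571 bp, also under the 4201 bp of the 8547. Short loci also had the wider spread of ratios, with an interquartile range of 1.60 (log2) under 1000 bp and 0.90 at 10000 bp or more. The median ratio was lowest under 1000 bp, at 0.26, and was 0.46 at 10000 bp or more. In the classes between, from short to long, it was 0.50, 0.63, 0.61 and 0.49. The part of this wider spread in the larger share of lower loci was not tested, and the span covers introns, so it is not the length of the transcript. The longest lower loci were a chromosome 7 locus of 107148 bp, from 108309686 to 108416833, with 9.30 FPKM in the wild-type library and 3.34 in dek35, and a chromosome 10 locus of 39442 bp, from 37914656 to 37954097, with 42.8 and 17.04.

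**Figure D3:**
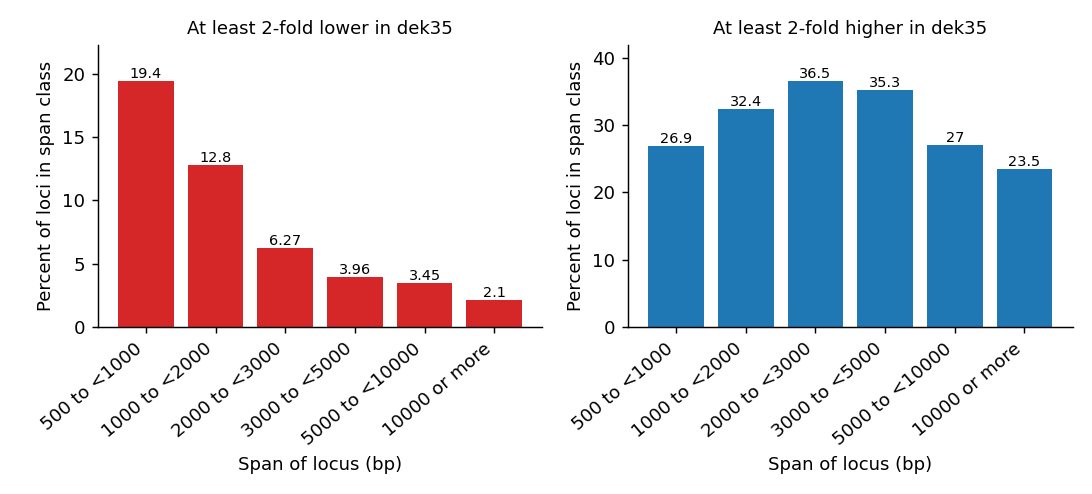
Percent of loci in each span class (x axis, bp) that were at least 2-fold lower in dek35 (left) or at least 2-fold higher (right), among the 8547 loci; the 2 panels have different y scales. The share of lower loci falls from 19.4% in the shortest class to 2.10% in the longest, whereas the share of higher loci is largest, at 36.5%, from 2000 to under 3000 bp.

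Lower loci occurred on every chromosome. Their share ran from 4.42% of 1019 loci on chromosome 5 and 4.57% of 832 on chromosome 4 to 6.90% of 623 on chromosome 10 and 8.48% of 637 on chromosome 7. Along the chromosomes, cut into 5 equal stretches by coordinate, the share lay between 5.41% and 6.76%. By wild-type level it was 5.51% at 5 to 7 FPKM, 5.71% at 7 to 10, 5.22% at 10 to 20 and 6.19% at 20 to 50. The limit on the mean removes loci that are higher in dek35, and smaller rises suffice the higher the wild-type level. Shares above 50 FPKM are therefore not comparable. The 6.19% at 20 to 50 FPKM may be raised in the same way, to a lesser degree.

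Close neighbours of lower loci were often lower too. When the 8547 loci were put in genome order, 91 lower loci had the next locus within 10 kb, and in 23 cases (25.3%) that next locus was also a lower one. After any other locus within 10 kb the share was 4.93% (56 of 1135). At gaps of 10 to 50 kb the shares were 8.33% (6 of 72) after a lower locus and 61 of 1221 after another, and at 50 to 200 kb 9.04% (16 of 177) and 6.10% (173 of 2836). Beyond 200 kb they were 2.89% (5 of 173) and 6.14% (174 of 2832). Since short loci were more often lower, the count was repeated with loci of at least 1000 bp. Of 57 next loci within 10 kb, 10 (17.5%) were lower, beside 5.03% of all such loci at any gap. The share after other loci was not counted here. Spans still varied among these loci, so the repeat removes the difference in span only in part.

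The 23 close pairs held 42 loci on 8 chromosomes, with a median gap of 2433 bp and a gap under 1000 bp in 6. On chromosome 1, the loci from 50772757 to 50773603 and from 50774736 to 50775530 had 15.1 and 5.20 FPKM in the wild-type library and 0.488 and 0.153 in dek35, so that they were 31.0-fold and 34.0-fold lower. On chromosome 6, the loci from 165543429 to 165548373 and from 165549784 to 165553311 had 52.2 and 55.6 FPKM in the wild-type library and 12.7 and 11.3 in dek35. Both pairs were alike in fold, and both were picked from the 23 after their values were seen. Of the 23 pairs, 15 had folds within 2-fold of each other. How often lower loci far apart were so alike is not given here. Others were unlike: on chromosome 2, the locus from 5834727 to 5838794 was 3.74-fold lower and its neighbour from 5841856 to 5842734 was 47.2-fold lower. Some gaps were a few bases only, 8 bp for a chromosome 5 pair starting at 215112901, and whether such loci are 1 transcription unit listed in pieces was not tested.

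**Figure D4:**
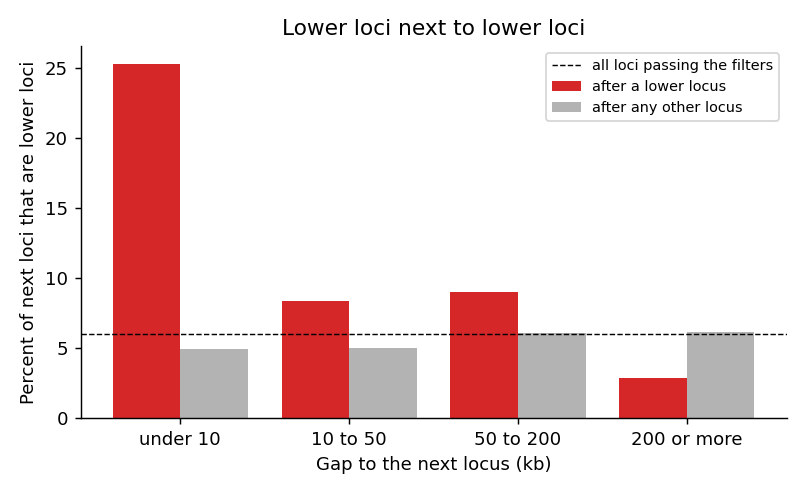
Percent of next loci that were lower loci (y axis) by the gap to the next locus in kb (x axis), after a lower locus (red) and after any other locus (grey); the dashed line is the 6.01% of all 8547 loci. The bar after a lower locus stands at 25.3% for gaps under 10 kb and at 2.89% for gaps of 200 kb or more.

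With gaps of at most 200 kb, 109 of the 514 lower loci fell into 51 runs: 46 of 2 loci, 3 of 3 and 2 of 4. Between 10 and 200 kb the share of lower next loci, 8.33% and 9.04%, was not far from the 6.01% of all loci, so the number of runs is given as a description. Of the 2 runs of 4 loci, the shorter was on chromosome 2, from 6973267 to 6983559, where 4 loci of 714 to 975 bp followed each other over 10293 bp with no other locus between them. Their wild-type values, in genome order, were 7.44, 12.4, 38.3 and 18.04 FPKM, and their dek35 values 0.895, 4.67, 19.1 and 3.44. The run therefore kept its order of levels only in part, with folds from 2.01 to 8.32. On chromosome 6, from 141859637 to 141876868, 4 lower loci had 24.8, 27.3, 30.3 and 6.80 FPKM in the wild-type library and 12.06, 10.6, 12.4 and 3.36 in dek35. Here the folds were close together, from 2.02 to 2.58, and the first 3 loci were separated by gaps of only 32 and 93 bp. The 2 further loci inside that run were also lower in dek35 but under the minimum, with 0.458 and 2.58 FPKM in the wild-type library and 0.227 and 1.55 in dek35.

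Of the 3 runs of 3 loci, 2 were on chromosome 7. From 121043853 to 121220795, the loci had 13.6, 80.7 and 25.2 FPKM in the wild-type library and 5.79, 16.9 and 10.3 in dek35. The only other locus inside that run, at 121073275, was near 0 in both libraries and went the other way, with 0.0934 and 0.579 FPKM. From 174550356 to 174621870, they had 7.93, 30.5 and 16.2 FPKM in the wild-type library and 1.71, 5.17 and 0.836 in dek35, with folds of 4.64, 5.90 and 19.4. This last stretch was not lower as a whole: it held 6 further rows, all higher in dek35, the most abundant of them (174575764 to 174580108) with 5.96 FPKM in the wild-type library and 13.5 in dek35. On chromosome 9, from 114043716 to 114098571, the 3 loci had 5.71, 18.3 and 26.6 FPKM in the wild-type library and 0.722, 6.19 and 11.3 in dek35. The only other locus inside that run, at 114059063, fell just short of the minimum with 4.50 FPKM and had 1.18 in dek35.

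**Figure D5:**
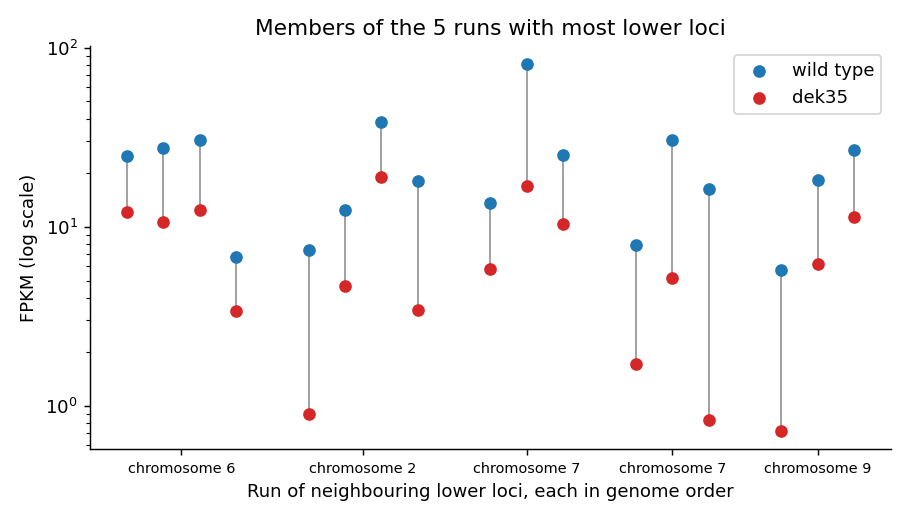
FPKM on a log scale (y axis) in wild type (blue) and dek35 (red) of each lower locus in the 5 runs with most lower loci, in genome order within a run (x axis). The first 3 chromosome 6 loci lie close together in both libraries, at 24.8 to 30.3 and 10.6 to 12.4 FPKM, while the chromosome 2 loci spread from 7.44 to 38.3 and from 0.895 to 19.1.

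Neighbours that were not lower loci themselves mostly had higher values in dek35, like loci in general, by slightly less. For each of the 514, the nearest locus on either side was taken that was no lower locus and reached 5 FPKM in 1 library. It also had to share its coordinates with no other row that met both conditions. A row with shared coordinates could thus enter where only 1 row of that coordinate reached 5 FPKM. The median distance was 71417 bp. These 1028 neighbours had a median log2 ratio of 0.73 (95% interval of the median across loci 0.63 to 0.79), and all 14300 such loci had 0.82. Of the neighbours 3.02% were at least 2-fold lower on this scale, beside 2.11% of the 14300, and 39.1% were at least 2-fold higher, beside 41.9%. Within 10 kb, the 211 neighbours had a median of 0.57 and 5.69% were at least 2-fold lower. The median did not follow distance, at 0.88 from 10 to 50 kb, 0.76 from 50 to 200 kb and 0.64 beyond. In the same order, 2.75%, 2.28% and 1.95% were at least 2-fold lower. A locus can be the neighbour of several lower loci, so the interval counts some loci more than once. It does not measure variation between libraries, so the difference between 0.73 and 0.82 was not tested. Most loci that were lower had already been taken out by the rule.

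A few lower loci lay beside very abundant loci that were themselves far lower in dek35. There were 34 such abundant rows, with a mean of at least 500 FPKM and a span of at least 200 bp. Each had a dek35 value at least 4-fold lower. Their share of all rows of that mean and span is not given here, so they serve only as landmarks. Within 100 kb of 1 of them lay 15 of the 8547 loci. Of these 15, 4 were lower loci (26.7%), beside 5.94% of the 8110 loci more than 5000 kb away or on a chromosome without one. On chromosome 7 they were the loci at 18923142 and 18789875, and on chromosome 4 the loci at 5079765 and, listed at 0 in dek35, from 5495165 to 5495916 with 10.7 FPKM in wild type. They include the lower locus of highest wild-type level and 2 of the 3 with the largest folds. These 4 lay 9574 to 44959 bp from an abundant row and on 2 chromosomes only, so the share rests on few places. The 2 of the 15 closest to an abundant row were not lower loci. They lay 6472 bp away on chromosome 7 (starting at 105090177) and 7387 bp away on chromosome 6 (starting at 39076857). In dek35 they were 1.35-fold and 1.62-fold lower, short of the 2-fold limit. Between the chromosome 4 loci lay 2 of the 15 with nearly level or higher values in dek35, 9.01 FPKM in the wild-type library and 10.5 in dek35 at 5244889, and 17.1 and 29.1 at 5253223. Others of the 15 were at least 2-fold higher in dek35, as were 30.8% of all 8547. The locus at 4986318 on chromosome 1 had 11.8 FPKM in the wild-type library and 50.2 in dek35. Those at 5006417 and 21243636 on chromosome 4 had 5.72 and 7.24 in the wild-type library and 12.4 and 34.1 in dek35. At 184056159 on chromosome 2 the values were 16.1 and 40.5. Whether reads of an abundant locus were assigned to a similar neighbour was not tested. From 100 to 1000 kb the share was 6.06% of 99 loci.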

How the data were processed

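The authors deposited FPKM values, per the file headers, in 1 table per genotype. Bowtie 0.12.2 appears in the submitters' processing notes. Not given in the sources used here were the quantification program, the genome build, the annotation, strand, pooling and further scaling. Both tables hold identical coordinates row by row and were joined that way. Values of 1e-05 or less are called listed at 0. Starts count from 0 in the files (7 of 37 mitochondrial loci match annotated genes of Zm-B73-REFERENCE-NAM-5.0 after adding 1, 0 without it) and are printed counted from 1. None of 43287 nuclear loci matched that annotation, so no nuclear locus is named and no sequence was read. No rows on the chromosomes overlap a row of other coordinates.

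The design foresaw no test, since each genotype has 1 library. Ratios are log2((dek35 + 1)/(wild type + 1)), which understates changes of low loci; folds are of the deposited values. The depth behind a value is unknown, and counting error could not be stated. Named loci were the 5 highest in wild type, the 5 largest folds above 0, the 5 highest listed at 0, the 2 on either side of each limit, the 2 longest and the 5 largest runs; close pairs and loci near abundant ones were added after their values were seen. The lower loci and the splits were chosen with earlier results of these data known. The selection, run and pair procedures were tested on simulated data. The tools were matplotlib 3.10.9, scipy 1.17.1, pandas 2.3.3 and numpy 2.4.6 under Python 3.11.15.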

Additional observations from a re-analysis of the deposited data

How the results depend on the processing

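No paired analysis was possible because there is a single library of either genotype, and no replicate could be left out. Alternatives gave 70 values, of which 32 moved and 0 reversed. Counts, shares and sums were taken as moved past 1.5 times, and medians when they left their 95% interval. Only medians could be called reversed, and the median of the lower loci is negative by the rule, so only the neighbour median could have reversed. Leaving out overlapping loci could change nothing, since no rows overlap. Scaling dek35 down enlarges the set by construction: with median-of-ratios size factors, the upper quartile, and the totals less the 50 loci of highest mean, in that order, 1735, 1131 and 1419 loci met the rule, all 514 among them each time. Of these 419, 302 and 355 were at least 4-fold lower, their median log2 ratios were -1.29, -1.32 and -1.30, and 1602, 2429 and 1951 loci met the rule with the genotypes exchanged. Equal FPKM totals left 390 of the 514. The loci that could meet the rule also change in number with the scaling and the minimum, so these counts do not compare as shares. With median-of-ratios factors the 514 loci differed 5.95-fold in sum, 36.2% of loci under 1000 bp were lower (17.5% of those of 10000 bp or more), and 99 of 269 next loci within 10 kb were lower, 36.8% beside 19.7% of all. A minimum of 1 FPKM gave 1141 loci, 462 at least 4-fold lower, 102 listed at 0, a median of -1.14 and 8249 in the other direction; a minimum of 10 FPKM gave 335, 105 and 9, and 14 pairs within 10 kb, where 35.9% of next loci were lower beside 6.25% of all. Loci listed at 0 numbered 52 with spans from 200 bp, 7 from 1000 bp and 43 with shared coordinates included. Spans from 1000 bp left 10 close pairs. A pseudocount of 0.1 gave a median of -1.55. Neighbours from 1 FPKM up had a median of 0.62. Runs numbered 27 with gaps up to 50 kb and 109 with gaps up to 1000 kb. The alternatives on span and close pairs were added after the data were seen.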
